A study of Mus musculus with 8 samples.

Results

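The genes described here build the carriers that move newly made proteins between the endoplasmic reticulum (ER) and the Golgi apparatus. The module lists 36 genes for the COPII coat, the COPI coat and its ARF GTPases, cargo and retrieval receptors, helpers of large cargo, and Golgi tethers. Members were found by an exact match of gene symbol in the deposited table, each Ensembl identifier counted once, which gave 35 of 52325 gene identifiers. The symbol Mia2 was not found in the table. Its identifier, ENSMUSG00000021000, carries the older symbol Ctage5 there, and its values are given beside the 35 and not counted with them.

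The data are RNA sequencing of costal chondrocytes, the cartilage cells of the rib cage, freed from the tissue with collagenase. There were 8 libraries of total RNA from 8 individual mice: 4 wild-type controls (WT) and 4 Mir324-null animals, which lack the gene of the microRNA miR-324. None of the mice was treated. Strain, age, sex and how the null allele was made are not in the labels. P-values measure the spread between these 8 animals. The comparison asks which transcripts differ in cartilage cells without Mir324.

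COPII coats bud vesicles from ER exit sites, where the GTPase SAR1 recruits an inner layer of SEC23 and SEC24 and an outer layer of SEC13 and SEC31. COPI coats, recruited by ARF GTPases, return escaped ER residents and receptors from the Golgi to the ER. Chondrocytes depend on this route because they export procollagen and proteoglycans in bulk, and inherited loss of SEC23A, SEC24D, TRAPPC2 or TRIP11 gives skeletal disease in people.

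Both mature arms of miR-324 are shown first, since their seeds (bases 2 to 8, in capitals) define the matches sought in the members. They come from RefSeq (GRCm38.p6, chromosome 11, plus strand), the 5p arm from chr11:70012060-70012082 and the 3p arm from chr11:70012095-70012114. The arms have different seeds.
mmu-miR-324-5p: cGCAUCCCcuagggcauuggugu
mmu-miR-324-3p: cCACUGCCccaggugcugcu

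A 7-base match to the 5p seed, GGGATGC, lay in the longest annotated 3′ UTR (GENCODE M21) of 1060 of 11320 genes (9.36%). It lay in 4 of the 36 members (11.1%): Copa, Copg1 and Arcn1, all subunits of the COPI coat, and the retrieval receptor Kdelr2. The windows below give these sites in the sense of the transcript, with the seed match in capitals.
Copa: cctcctgcttcGGGATGCagattccatca
Copg1: agaaatcctagGGGATGCttcagggcttg
Arcn1: aatagggatggGGGATGCtttagaaatgt
Kdelr2: ggcgaaggctcGGGATGCtcagtgggcag
The 3p match, GGCAGTG, lay in 1991 genes (17.6%) and in 4 members (11.1%): Sar1a, Arcn1, Golga2 and Lman1. Arcn1 was the member with a match to both arms.
Sar1a: tgttgctgccgGGCAGTGtgtggggactg
Arcn1: ttccagttgcaGGCAGTGttgtgaatccc
Golga2, upstream site: gcctggtggttGGCAGTGctaagcaggca
Golga2, downstream site: aggcactttagGGCAGTGgggctgggcag
A match of letters is a description and not evidence of binding.

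The values are TPM, transcript abundances corrected for length and scaled to a total of 1000000 per library, which keep no record of depth. Genes at 1 TPM or more numbered from 13229 to 14477 per library. Null replicate 3 stood apart: it had the fewest such genes, its mean Spearman correlation with the others was 0.864 against 0.895 to 0.914 for the rest, and pseudogenes held 25.0% of its TPM against 17.7% to 19.1%. Counts, fold changes and shares of the transport genes are therefore given with and without it. The targeted gene gives no check of genotype here, because Mir324 was at 0 TPM in each of the 8 libraries. The cartilage markers were abundant in both groups, with Col2a1 at 39546 ± 4309 TPM in WT mice and 37648 ± 5024 TPM in null mice (± SD, n = 4 per genotype), and Acan at 595 ± 32.1 and 672 ± 91.4 TPM. The 9 chondrocyte markers summed to 40856 to 50834 TPM in WT and 38260 to 52368 TPM in null libraries. In such bulk samples, fewer cells of a type and less RNA per cell cannot be told apart.

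The transport genes were measured well above the lower limit in both genotypes, and none passed the test for a difference. All 35 passed the filter of 1 TPM in at least 4 libraries, with means from 5.59 TPM for Trappc2 to 561 TPM for Arf4. By limma's trended test on log2(TPM + 1), 0 of 35 passed an adjusted p of 0.05, where 3 of 13910 tested genes did (0.0216%). At an unadjusted p under 0.05 there were also 0 of 35, against 4.15% of all tested genes. The 4 null values lay wholly above or wholly below the 4 WT values for 0 members, against 2.68% of tested genes. The smallest adjusted p of a member was 0.981.

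Fold changes of the members were small and lay on both sides of 0. There were 21 members lower and 14 higher in the null group (60.0% lower), beside 60.1% lower among all tested genes. The median log2 fold change was -0.04 for the members and -0.05 for all tested genes, and the members ran from -0.21 for Sec24c to 0.28 for Sec16a. These directions depend on the scaling of the libraries: scaled by the median of ratios, 13 members were lower and 22 higher (median 0.03), beside 49.2% lower among all tested genes (median 0.00). The precision was good enough to bound these changes: the 95% interval lay within 1 of no change on the log2 scale for all 35, and within 0.58, a 1.5-fold change, for 23 of 35 (65.7%). Among all tested genes, 79.9% and 41.9% lay within the same bounds. The interval of 1 member, Preb, reached past 1, to 1.09, without null replicate 3.

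**Figure D1:**
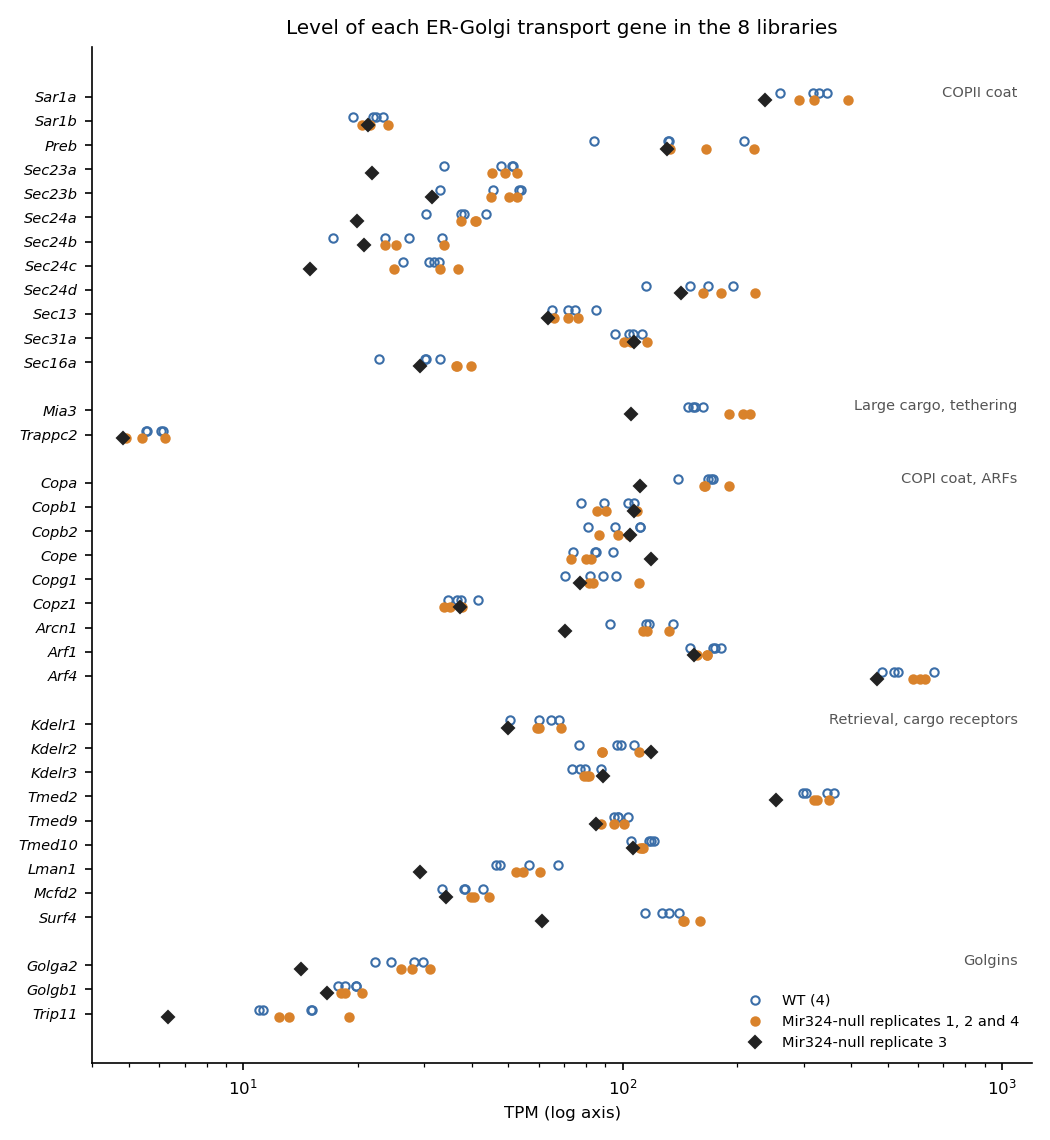
TPM (log axis) of the 35 members in each library, grouped by role. Open circles are the 4 WT mice, filled circles null replicates 1, 2 and 4, and diamonds null replicate 3. The groups overlap for every member, from Trappc2 near 5.59 TPM to Arf4 near 561 TPM, and null replicate 3 is the lowest library for 19 of the 35.

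Without null replicate 3 the balance of directions turned. There were then 8 members lower and 27 higher, with a median log2 fold change of 0.05, beside 45.0% lower and a median of 0.02 over all tested genes. By limma, 0 of the 35 had an adjusted p under 0.05 (0.0144% of tested genes did; smallest member value 0.956). At an unadjusted p under 0.05 there were 2 members (5.71%), Sec16a and Mia3, against 5.06% of tested genes. The null values lay wholly above the WT values for 3 members (8.57%), Sec16a, Mia3 and Surf4, against 5.99% of tested genes with no overlap in either direction. The members' 95% intervals lay within 1.5-fold for 29 of 35 (82.9%), beside 52.4% of tested genes. Leaving out WT replicate 4 instead moved the directions the other way. It gave 27 members lower and 8 higher (median -0.10), beside 63.5% lower and a median of -0.07 over all tested genes.

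**Figure D2:**
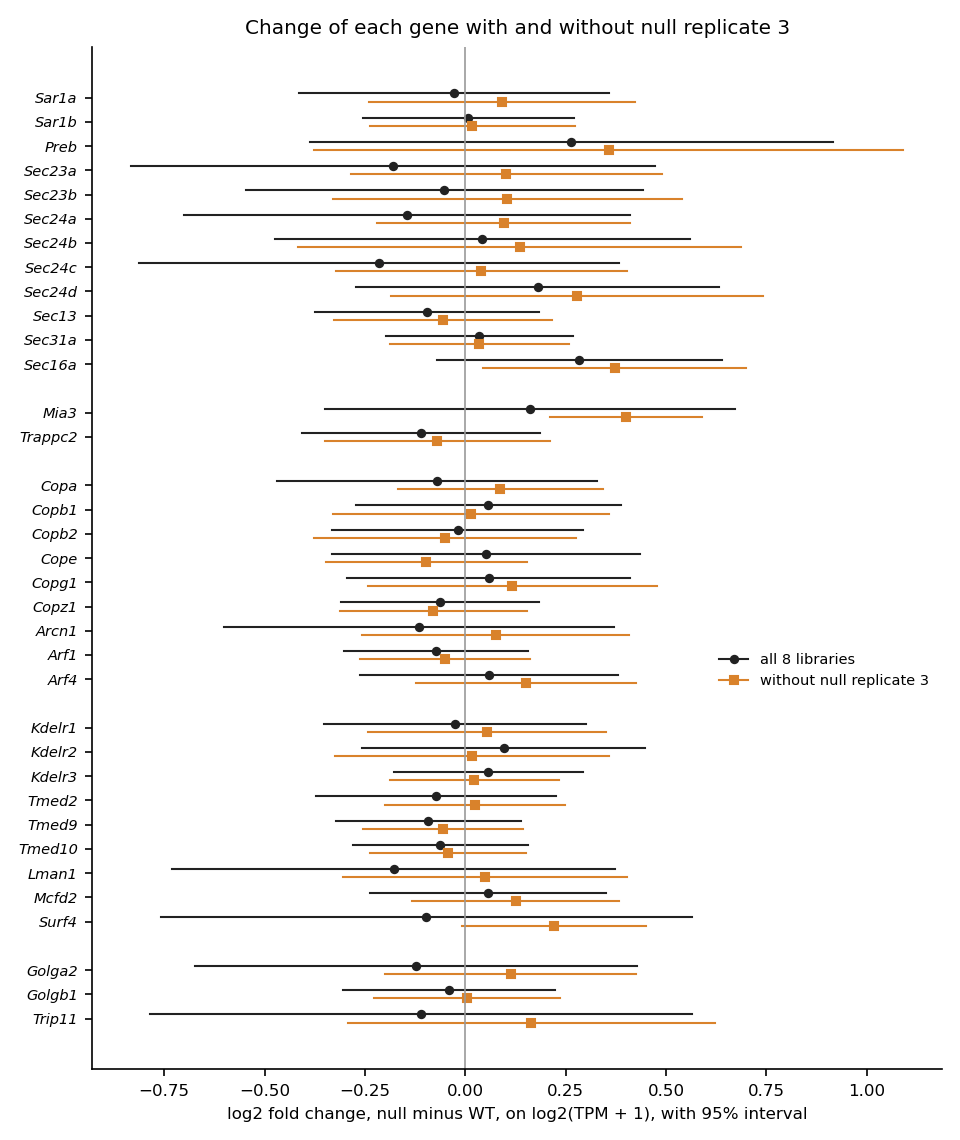
Log2 fold change, null minus WT, on the log2(TPM + 1) scale with limma's 95% interval, for each member with all 8 libraries (black circles) and without null replicate 3 (orange squares). With all 8 libraries every interval spans 0, and without null replicate 3 those of Sec16a and Mia3 lie above it.

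Genes of the COPII coat did not differ in the test: 6 of 12 were lower and 6 higher, and their log2 fold changes had a median of -0.01. Without null replicate 3, 1 of the 12 was lower and 11 were higher (median 0.10), and with median-of-ratios scaling 4 were lower and 8 higher (median 0.06). Leaving out WT replicate 4 instead gave 9 lower and 3 higher (median -0.11), beside 63.5% lower among all tested genes. Sec16a, the large scaffold that organises ER exit sites, had the smallest p of the 35 members found by symbol. It stood at 32.9, 30.2, 30.3 and 22.8 TPM in WT 1 to 4 and at 36.3, 39.9, 29.3 and 36.6 TPM in null 1 to 4, by replicate number. Null replicates 1, 2 and 4 lay above all WT mice, while null replicate 3 lay among them. Mean levels were 29.1 ± 4.35 TPM for WT and 35.5 ± 4.47 TPM for null mice (± SD, n = 4 per genotype). The log2 fold change was 0.28 (95% interval -0.07 to 0.64; limma adjusted p = 0.981). It was 0.37 (0.04 to 0.70; limma adjusted p = 0.956) without null replicate 3.

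The GTPase that starts the coat comes from a pair of genes, and Sar1a was by far the more abundant. It stood at 346, 318, 329 and 260 TPM in WT and at 320, 392, 238 and 291 TPM in the null mice, in replicate order, a log2 fold change of -0.03 (95% interval -0.41 to 0.36). Sar1b, which human genetics ties to the export of lipoprotein particles, stood at 21.9, 23.4, 22.3 and 19.5 TPM in WT and at 21.6, 20.5, 21.3 and 24.1 TPM in null mice, with 0.01 (-0.26 to 0.27). Leaving null replicate 3 out gave 0.09 for Sar1a and 0.02 for Sar1b. In both genes the WT and null ranges overlapped. Preb, known as SEC12, is the ER protein that loads SAR1 with GTP. It varied most among the WT mice, at 132, 209, 132 and 84.0 TPM, and stood at 133, 221, 131 and 166 TPM in null mice, a log2 fold change of 0.26 (-0.39 to 0.91). This value was 0.36 (-0.38 to 1.09) without null replicate 3, and single libraries moved it from 0.05 (without WT replicate 4) to 0.48 (without WT replicate 2). Of the 31-base stretches of Preb transcripts, 19.6% also occur in other genes, mainly in Abhd1, which overlaps it on the opposite strand. No source used here says if counting used strand, so reads in that overlap cannot be told apart.

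The inner coat binds cargo through SEC24. Sec24d was the most abundant paralog, at 151, 195, 168 and 115 TPM in WT and 182, 223, 143 and 163 TPM in the null mice. Apart from null replicate 2, which was the highest, the null mice lay inside the WT range, and the log2 fold change was 0.18 (-0.27 to 0.63). It was 0.28 without null replicate 3 and ran from 0.04 (without WT replicate 4) to 0.29 (without WT replicate 2) when single libraries were left out. Sec24c stood at 31.9, 30.8, 26.4 and 32.8 TPM in WT and 36.9, 25.0, 14.95 and 32.9 TPM in null mice, where replicate 3 was far below the rest. Its log2 fold change of -0.21 (-0.81 to 0.38) was 0.04 without that library. Sec24a stood at 37.5, 43.6, 38.2 and 30.3 TPM in WT and 37.5, 41.0, 19.9 and 40.7 TPM in null mice. Sec24b stood at 23.7, 33.4, 27.3 and 17.2 TPM in WT and 23.7, 33.8, 20.8 and 25.3 TPM in null mice, so both overlapped, with log2 fold changes of -0.14 and 0.04, or 0.10 and 0.14 without null replicate 3.

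SEC23 is the partner of SEC24 and the activator of the SAR1 GTPase. Sec23a, the paralog mutated in cranio-lenticulo-sutural dysplasia, stood at 51.4, 51.0, 47.8 and 33.8 TPM in WT and 48.8, 45.2, 21.8 and 52.6 TPM in null mice. Null replicate 3 was the lowest of the 8 and WT replicate 4 the next, and the log2 fold change of -0.18 (-0.83 to 0.47) was 0.10 without null replicate 3. Sec23b stood at 53.4, 54.0, 45.5 and 32.9 TPM in WT and 44.9, 50.2, 31.5 and 52.6 TPM in null mice, with -0.05 (-0.55 to 0.44), or 0.10 without that library. The outer coat was steadier. Sec13, which also serves in the nuclear pore, stood at 85.3, 75.0, 65.1 and 71.9 TPM in WT and 71.5, 76.3, 63.7 and 65.8 TPM in null mice, overlapping, with -0.10 (-0.37 to 0.18), or -0.06 without null replicate 3. Sec31a varied little, at 105 ± 7.12 TPM for WT and 107 ± 6.50 TPM for null mice (± SD, n = 4 per genotype), with 0.04 (-0.20 to 0.27), or 0.03 without null replicate 3.

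For 6 families of paralogs, the share of 1 gene in the family's summed TPM was compared, a measure that does not depend on how a library is scaled. Sec24d held 61.8, 64.5, 64.7 and 58.9% of Sec24 TPM in WT replicates 1 to 4 and 65.0, 69.1, 71.9 and 62.1% in null replicates 1 to 4. Null replicates 1, 2 and 3 lay above all WT mice and null replicate 4 inside their range. The mean share was 62.5 ± 2.71% for WT and 67.03 ± 4.34% for null mice (± SD, n = 4 per genotype), a difference of 4.58 percentage points with an exact two-sided permutation p of 0.114, or 0.571 adjusted over the 6 families. The 70 labelings of 4 against 4 mice allow no p below 0.0286. The difference moved with single mice: it was 2.95 points without null replicate 3 (exact permutation p = 0.314, adjusted 0.943) and 6.21 points without null replicate 4 (exact permutation p = 0.0286, adjusted 0.171). The remaining Sec24 TPM fell to Sec24a (14.99% in WT, 12.9% in null), Sec24c (12.5% and 10.3%) and Sec24b (10.01% and 9.77%).

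None of the other 5 families passed this test either. Sec23a held 49.02, 48.6, 51.2 and 50.6% in WT and 52.1, 47.4, 40.9 and 49.98% in null mice, where null replicate 3 was lowest. Its means were 49.9 ± 1.27% and 47.6 ± 4.85% (exact permutation p = 0.486), a difference of -2.27 points that was -0.0505 without null replicate 3. Sar1b held 5.96, 6.85, 6.36 and 6.97% in WT and 6.31, 4.98, 8.23 and 7.63% in null mice of Sar1 TPM. The null mice reached past the WT range on both sides, with means of 6.53 ± 0.467% and 6.79 ± 1.45% (exact permutation p = 0.800) and a difference of 0.254 points, or -0.228 without null replicate 3.

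Among the Kdelr receptors, Kdelr3 held 35.5, 31.8, 32.3 and 35.5% in WT and 34.2, 32.1, 34.5 and 34.8% in null mice. All null mice lay inside the WT range, with means of 33.8 ± 1.99% and 33.9 ± 1.21% (exact permutation p = 0.971) and a difference of 0.108 points, or -0.0830 without null replicate 3. The COPI subunit Copg1 held 90.04, 85.7, 86.2 and 91.1% in WT and 91.7, 85.97, 94.9 and 92.1% in null mice of the Copg pair. Null replicates 1, 3 and 4 lay above the WT mice, with means of 88.3 ± 2.70% and 91.2 ± 3.75% (exact permutation p = 0.200) and a difference of 2.89 points, or 1.65 without null replicate 3. Copz1 held 27.1, 32.8, 25.8 and 28.4% in WT and 29.6, 34.6, 29.4 and 30.2% in null mice of the Copz pair. Its ranges overlapped, with means of 28.5 ± 3.02% and 30.96 ± 2.47% (exact permutation p = 0.286) and a difference of 2.43 points, or 2.93 without null replicate 3. The ± values are SD with n = 4 in each group, and without null replicate 3 the smallest adjusted p of the 6 families was 0.943. In the Copz pair the larger part therefore lay with Copz2, at 71.5% in WT and 69.0% in null mice, whereas Copg1 outweighed Copg2.

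**Figure D3:**
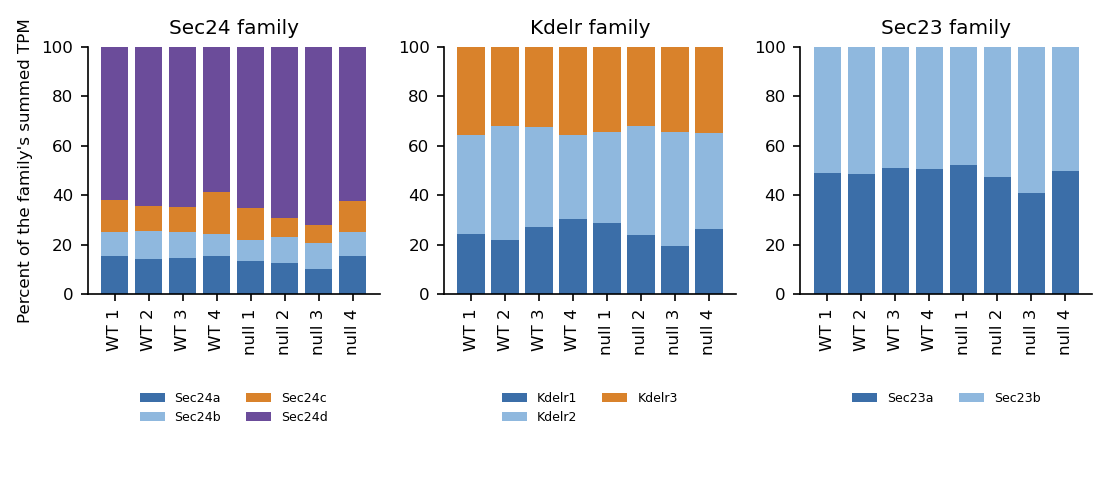
Percent of each family's summed TPM held by each paralog in the 8 libraries, for the Sec24, Kdelr and Sec23 families. Sec24d holds the largest part of Sec24 TPM in every library, from 58.9% in WT replicate 4 to 71.9% in null replicate 3, and Sec23a and Sec23b are near parity except in null replicate 3, where Sec23a is at 40.9%.

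Large cargo such as procollagen needs TANGO1, the product of Mia3, which spans the ER membrane and links cargo to the coat. Mia3 stood at 163, 155, 154 and 149 TPM in WT and at 208, 216, 105 and 191 TPM in null replicates 1 to 4. The WT mice were close together, null replicates 1, 2 and 4 lay above all of them, and null replicate 3 lay below all of them. With all 8 libraries the means were 155 ± 6.14 and 180 ± 51.1 TPM (± SD, n = 4 per genotype), and the log2 fold change was 0.16 (95% interval -0.35 to 0.67; limma adjusted p = 0.981). Leaving null replicate 3 out, the null mean was 205 ± 12.8 TPM (SD, n = 3) and the log2 fold change 0.40 (0.21 to 0.59; limma adjusted p = 0.956), which did not pass over all tested genes. The longest Mia3 transcript in GENCODE M21 has 2961 bases and the locus is tagged as fragmented there, which limits what its level means.

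The partner of TANGO1, cTAGE5, is encoded by Mia2, listed as Ctage5. It stood at 196, 145, 253 and 181 TPM in WT and 203, 232, 271 and 268 TPM in null mice. All 4 null mice lay above WT replicates 1, 2 and 4, and WT replicate 3 lay among them. Its means were 194 ± 45.0 and 244 ± 32.4 TPM (± SD, n = 4 per genotype), and its log2 fold change was 0.35 (-0.07 to 0.77; limma adjusted p = 0.981), and 0.29 (-0.16 to 0.75) without null replicate 3. Trappc2, known as sedlin, is a subunit of the TRAPP tethering complex whose loss causes spondyloepiphyseal dysplasia tarda. It was the least abundant member, at 5.54, 6.05, 6.14 and 5.58 TPM in WT and 6.23, 5.42, 4.81 and 4.92 TPM in null mice, overlapping, with a log2 fold change of -0.11 (-0.41 to 0.19), or -0.07 without null replicate 3. Its transcripts share 13.2% of their 31-base stretches with other genes and overlap Ofd1 on the opposite strand.

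**Figure D4:**
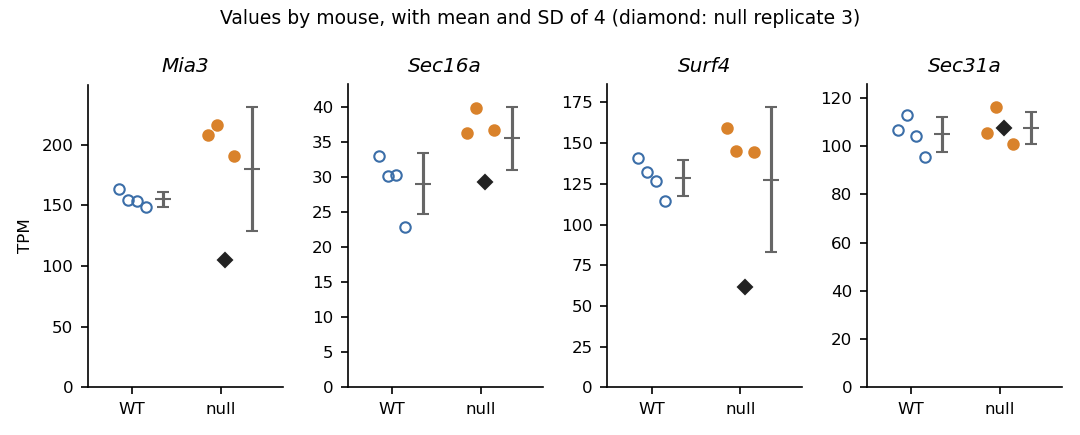
TPM by mouse for Mia3, Sec16a, Surf4 and Sec31a, with the mean and SD of 4 mice beside each group; open circles are WT, filled circles null replicates 1, 2 and 4, and diamonds null replicate 3. For Mia3, Sec16a and Surf4 the 3 filled circles lie above all WT mice and the diamond does not, while Sec31a stays at 105 ± 7.12 and 107 ± 6.50 TPM.

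COPI coat and ARF genes had tight intervals: 8 of 9 lay within 1.5-fold, against 6 of 12 for the COPII coat and 7 of 9 for the receptors. Without null replicate 3 these were 9 of 9, 8 of 12 and 9 of 9. Of the 9 COPI and ARF genes, 5 were lower and 4 higher as deposited (median log2 fold change -0.02). There were 4 lower and 5 higher without null replicate 3 (median 0.01), and 2 and 7 with median-of-ratios scaling (median 0.05). Leaving out WT replicate 4 gave 7 lower and 2 higher (median -0.07). Arf4, a GTPase of the early Golgi and the most abundant member, stood at 520, 663, 533 and 483 TPM in WT and 582, 627, 469 and 610 TPM in null mice. Its ranges overlapped, with a log2 fold change of 0.06 (-0.26 to 0.38), or 0.15 without null replicate 3. Arf1, the main recruiter of COPI, stood at 181, 173, 175 and 151 TPM in WT and 167, 167, 154 and 157 TPM in null mice, with -0.07 (-0.30 to 0.16), or -0.05 without that library. Both genes share part of their 31-base stretches with other genes, 17.8% for Arf1 and 15.02% for Arf4.

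The coat itself has an outer layer (COPA, the beta-prime subunit COPB2 and COPE) and an inner layer (COPB1, COPG, COPZ and the delta subunit ARCN1). Copz1, the least abundant of its listed subunits, stood at 41.5, 37.5, 34.7 and 36.7 TPM in WT and 34.99, 37.6, 37.2 and 33.7 TPM in null mice, with -0.06 (-0.31 to 0.18), or -0.08 without null replicate 3. Copg1 stood at 96.0, 88.9, 82.3 and 70.5 TPM in WT and 81.6, 111, 77.1 and 83.6 TPM in null mice, overlapping, with 0.06 (-0.29 to 0.41), or 0.12 without that library. Copa, Copb1, Copb2, Cope and Arcn1 had log2 fold changes of -0.07, 0.06, -0.02, 0.05 and -0.12, and 0.09, 0.01, -0.05, -0.10 and 0.08 without null replicate 3. Cope was the member highest in null replicate 3 relative to the other libraries, at 119 TPM against 73.2 to 94.0 TPM.

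Members with a match to a miR-324 seed lay on both sides of 0. The 4 with a 5p match had log2 fold changes of -0.07 (Copa), 0.06 (Copg1), -0.12 (Arcn1) and 0.10 (Kdelr2), or 0.09, 0.12, 0.08 and 0.02 without null replicate 3. Those with a 3p match besides Arcn1 had -0.03 (Sar1a), -0.18 (Lman1) and -0.12 (Golga2), or 0.09, 0.05 and 0.11 without it. None of these 7 genes had an unadjusted limma p under 0.05 in either comparison.

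Retrieval and cargo receptors gave 6 lower and 3 higher of 9, and a median log2 fold change of -0.06. There were 2 lower and 7 higher without null replicate 3 (median 0.02), and 4 and 5 with median-of-ratios scaling (median 0.01). Leaving out WT replicate 4 gave 7 lower and 2 higher (median -0.06). The KDEL receptors catch escaped ER chaperones in the Golgi. Kdelr2 was the most abundant, at 98.9, 107, 96.5 and 76.6 TPM in WT and 88.4, 111, 118 and 88.1 TPM in null mice, with a log2 fold change of 0.10 (-0.26 to 0.45). Kdelr3 stood at 87.5, 73.4, 77.1 and 79.3 TPM in WT and 81.8, 80.4, 88.5 and 79.1 TPM in null mice, with 0.06 (-0.18 to 0.29). Kdelr1 stood at 60.1, 50.5, 64.7 and 67.8 TPM in WT and 68.8, 59.6, 49.97 and 60.3 TPM in null mice, with -0.03 (-0.35 to 0.30). The WT and null ranges overlapped for each receptor, and leaving null replicate 3 out gave 0.02 for Kdelr2, 0.02 for Kdelr3 and 0.05 for Kdelr1.

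The p24 proteins Tmed2, Tmed9 and Tmed10 sort cargo in both directions. Tmed2 was the most abundant receptor gene, at 360, 345, 299 and 304 TPM in WT and 325, 351, 253 and 319 TPM in null mice, with -0.07 (-0.37 to 0.23), and 24.7% of its 31-base stretches occur in other gene models. Tmed9 stood at 97.1, 94.9, 103 and 97.4 TPM in WT and 101, 87.8, 84.9 and 94.9 TPM in null mice, with -0.09 (-0.32 to 0.14). Tmed10 was among the steadiest genes, at 121, 119, 105 and 117 TPM in WT and 113, 112, 106 and 111 TPM in null mice, with -0.06 (-0.28 to 0.16). All 3 overlapped between genotypes, and had 0.02, -0.06 and -0.04 without null replicate 3.

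Lman1 and Mcfd2 encode a lectin and its calcium-binding partner, which together carry clotting factors out of the ER. Lman1 stood at 67.5, 46.4, 56.5 and 47.5 TPM in WT and 60.7, 52.2, 29.2 and 54.7 TPM in null mice. Null replicate 3 alone lay below the WT range, and the log2 fold change of -0.18 (-0.73 to 0.37) was 0.05 without it. Mcfd2 stood at 38.3, 42.8, 38.3 and 33.4 TPM in WT and 40.6, 44.5, 34.2 and 39.9 TPM in null mice, overlapping, with 0.06 (-0.24 to 0.35), or 0.13 without that library. Surf4, a multispanning receptor for soluble cargo, stood at 141, 132, 127 and 114 TPM in WT and 159, 145, 61.4 and 145 TPM in null mice. Null replicates 1, 2 and 4 lay just above all WT mice and null replicate 3 far below them, so the log2 fold change was -0.10 (-0.76 to 0.57) with all libraries and 0.22 (-0.01 to 0.45; limma adjusted p = 0.956) without null replicate 3.

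Golgins, coiled-coil tethers that capture vesicles at the Golgi, turned with null replicate 3: 3 of 3 were lower with it (median -0.11; 2 of 3 with median-of-ratios scaling) and 3 of 3 higher without it (median 0.11). Golga2, which encodes GM130 of the cis-Golgi, stood at 24.5, 28.2, 29.8 and 22.2 TPM in WT and 31.1, 26.0, 14.2 and 27.9 TPM in null mice. Trip11 encodes GMAP-210, whose loss causes achondrogenesis, and stood at 15.1, 15.1, 11.3 and 10.97 TPM in WT and 12.5, 19.0, 6.31 and 13.2 TPM in null mice. In both, null replicate 3 lay below every other library and the rest overlapped. Their log2 fold changes were -0.12 and -0.11, and 0.11 and 0.16 without that library. Golgb1, the gene of giantin, stood between 16.7 and 20.5 TPM in all 8 libraries, with -0.04, or 0.0044 without null replicate 3.

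Summed by library, the transport genes were lowest in 1 animal of each genotype. The 35 genes summed to 3804, 3976, 3605 and 3176 TPM in the WT mice and to 3787, 4167, 3065 and 3719 TPM in the null mice, in replicate order, which is 0.306% to 0.417% of a library. The lowest sums were in null replicate 3 and WT replicate 4, and the highest was in null replicate 2. In log2(TPM + 1), the median deviation of the members from the WT mean was -0.21 in null replicate 3 and -0.18 in WT replicate 4, beside -0.28 and -0.06 for all tested genes. WT replicate 4 was the lowest library for 12 of the 35 members (34.3%), against 15.1% of tested genes, and null replicate 2 the highest for 13 (37.1%), against 19.5%.

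**Figure D5:**
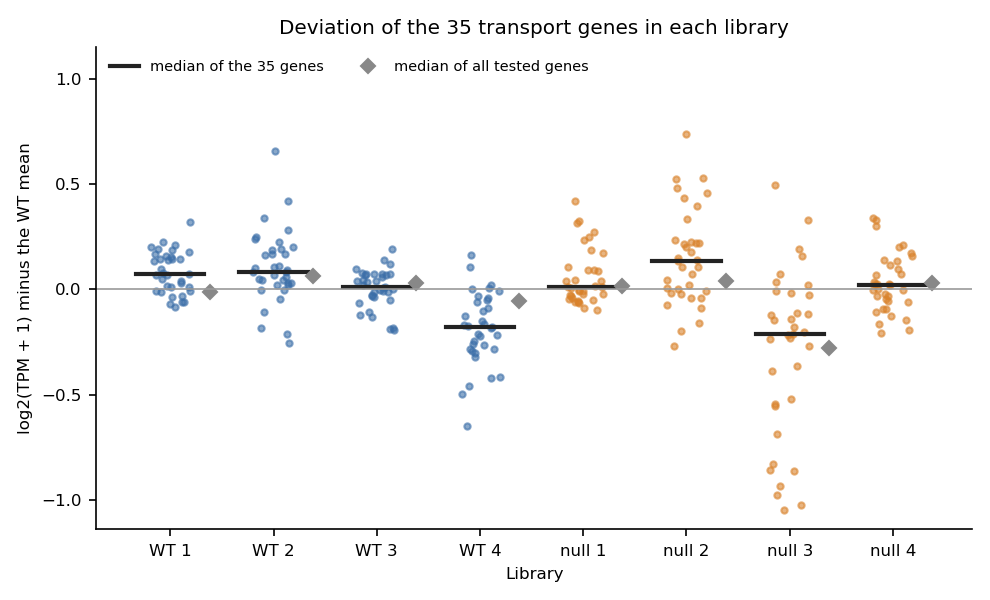
Deviation of each of the 35 members from its WT mean in log2(TPM + 1), by library; points are genes, black bars the members' median and grey diamonds the median of all tested genes. Null replicate 3 (median -0.21) and WT replicate 4 (-0.18) lie lowest and null replicate 2 (0.14) highest, and null replicate 3 has the widest spread.

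The low library of the null group did not lower all members alike. Null replicate 3 was the lowest library for 19 of 35 members (54.3%), against 43.3% of tested genes. Relative to the mean of the other 7 libraries in log2(TPM + 1), the members ran from -1.14 for Surf4, -1.07 for Sec23a and -1.003 for Trip11 to 0.32 for Kdelr2 and 0.54 for Cope. Across genes, this deviation of null replicate 3 had a Spearman correlation with transcript length of -0.37 over the 35 members and -0.32 over 13896 tested genes. For WT replicate 4 against its other 7 it was -0.38 over the members and -0.08 over all genes, and for null replicate 2 it was 0.48 and 0.12. Genes of a library share its preparation and are not replicates, so no test is given, and the part that transcript length plays in the differences between libraries was not tested.

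Several members share a promoter element of the ER stress response. RefSeq (GRCm38.p6) gave the promoter, from 250 bases before to 50 after the annotated start, for 31 of the 36 genes. On either strand, TGACGTGG, the unfolded protein response element (UPRE) bound by XBP1 and ATF6, occurred in 6 of 31 (19.4%), in 164 of 27025 promoters of all genes (0.607%) and in 81 of 8895 promoters of tested protein-coding genes (0.911%). Its 6 windows are printed for comparison, 30 bases each on the strand of the gene, with the element in capitals. It reads CCACGTCA where it lies on the opposite strand.
Sec24d, chr3:123267459-123267488, plus strand: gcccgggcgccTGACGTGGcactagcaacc
Sec23a, chr12:59011993-59012022, minus strand: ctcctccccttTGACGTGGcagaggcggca
Arf1, chr11:59228228-59228257, minus strand: gcggcaggcgcTGACGTGGctgccgtcagc
Copb1, chr7:114254690-114254719, minus strand: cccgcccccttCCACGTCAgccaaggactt
Copb2, chr9:98563713-98563742, plus strand: tcccggaagttCCACGTCAgtgggttggcc
Kdelr3, chr15:79516367-79516396, plus strand: tggccgccccgCCACGTCAccgcgcggcca
All 6 lay within 30 bases of the start. The shorter TGACG, which is part of the UPRE and of the element bound by CREB3-type factors, occurred in 19 of 31 (61.3%), against 21.02% of all promoters and 33.1% of those of tested coding genes. ACGTG, also part of the UPRE, occurred in 22 (71.0%), against 19.7% and 26.4%. CCAAT occurred in 12 (38.7%), against 37.9% and 38.8%, and the longer ER stress element ERSE, CCAAT followed after 9 bases by CCACG, in 0 of 31, against 0.130% and 0.180%. The 6 genes with a UPRE had log2 fold changes of 0.18 (Sec24d), -0.18 (Sec23a), -0.07 (Arf1), 0.06 (Copb1), -0.02 (Copb2) and 0.06 (Kdelr3), and of 0.28, 0.10, -0.05, 0.01, -0.05 and 0.02 without null replicate 3.

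None of the listed genes of the ER stress and CREB3 pathways passed the test between genotypes. Of 10 transcription factors and proteases of the ER stress and CREB3 pathways, 0 had an unadjusted limma p under 0.05, with 5 lower and 5 higher (median 0.01; 3 and 7 with median-of-ratios scaling). Leaving out null replicate 3 gave 1 lower and 9 higher (median 0.14), again with 0 at an unadjusted p under 0.05. Leaving out WT replicate 4 gave 6 lower and 4 higher (median -0.08). Xbp1 stood at 149 ± 17.1 TPM for WT and 151 ± 10.3 TPM for null mice, and Creb3l2, the CREB3-type factor that drives Sec23a in mouse cartilage, at 45.9 ± 5.33 and 49.1 ± 12.6 TPM (± SD, n = 4 per genotype). Creb3l1, its close relative, had a log2 fold change of 0.21 and Atf4, the effector of the PERK branch, -0.13. Mbtps1, the gene of the site-1 protease, had 0.15. These were 0.20, -0.12 and 0.18 without null replicate 3.

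Genes on either side of the coats were checked in lists chosen with earlier results of these data known. Of COPII regulators and TRAPP subunits, 13 of 14 were tested and 0 had an unadjusted limma p under 0.05, with 9 lower and 4 higher (median -0.05; 5 and 8 with median-of-ratios scaling). Its 3 genes of smallest p were Klhl12, the adaptor by which the ubiquitin ligase CUL3 enlarges COPII coats, with a log2 fold change of -0.39, Trappc8 with -0.23 and Cul3 with -0.10. Leaving null replicate 3 out gave 5 lower and 8 higher (median 0.02), and -0.16, 0.02 and -0.03 for these genes. The list of COPI and ARF regulators, which also holds the coat subunits Copz2 and Copg2, gave 0 of 9. It had 5 lower and 4 higher (median -0.01, or 3 and 6 with that scaling), led by Copz2 (-0.23) and Copg2 (-0.40). Leaving that library out gave 2 lower and 7 higher (median 0.04), and -0.28 and -0.13. Other p24 proteins and cargo receptors gave 0 of 13, with 6 lower and 7 higher (median 0.02; 3 and 10 with that scaling), led by Tmed4 (-0.22), Lman2 (0.16) and Ergic1 (-0.13). Leaving it out gave 5 lower and 8 higher (median 0.03), and -0.10, 0.30 and -0.0035. SNAREs, Rabs and tethers gave 0 of 27, with 19 lower and 8 higher (median -0.09; 15 and 12 with median-of-ratios scaling), led by Cog6 of the Golgi tether complex (-0.41), Bet1 (-0.18) and Rab6a (-0.18). Without null replicate 3, 11 of these 27 were lower, the median was 0.04, and these genes had -0.24, -0.12 and -0.07. In all these lists 0 genes had an adjusted limma p under 0.05.

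The folding factors that prepare cargo for the coats had mostly negative fold changes. Of 18 ER chaperones and folding factors, 18 were lower as deposited and 17 with median-of-ratios scaling, where their medians were -0.28 and -0.21; of all tested genes 60.1% and 49.2% were lower. As deposited, 4 had an unadjusted limma p under 0.05 and 2 did not overlap, against 4.15% and 2.68% of tested genes, and 0 had an adjusted p under 0.05. Creld2, a secreted ER stress protein, stood at 28.3, 32.9, 26.2 and 32.2 TPM in WT and 24.8, 19.4, 19.1 and 24.1 TPM in null mice, with no overlap and a log2 fold change of -0.44 (limma adjusted p = 0.981). Serpinh1, the collagen chaperone HSP47, stood at 1103 ± 76.6 TPM for WT and 815 ± 198 TPM for null mice (± SD, n = 4 per genotype), also without overlap, with -0.47 (limma adjusted p = 0.981). The gap was narrow, with null replicate 1 at 1031 TPM and WT replicate 3 at 1035 TPM, and null replicate 3 was lowest at 594 TPM. Sdf2l1, an ER chaperone complex subunit, had -0.48. Without null replicate 3, 17 of 18 were lower, the median was -0.11 and 3 had an unadjusted p under 0.05, against 5.06% of tested genes, and Creld2, Serpinh1 and Sdf2l1 had -0.38, -0.33 and -0.46. Whether the chaperones and the transport genes differ from each other was not tested.

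The secreted cargo of cartilage gave 7 lower and 5 higher of 12 under both scalings, with a median of -0.07 as deposited and 0 at an unadjusted limma p under 0.05. Matn3, a matrix adaptor protein, had a log2 fold change of -0.36, Hapln1, the link protein, -0.36, and Acan 0.17. Without null replicate 3 these were -0.17, -0.05 and 0.25, and Acan was then the 1 gene of the 12 at an unadjusted limma p under 0.05 (adjusted p = 0.956).

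Markers of other cells varied between animals. Endothelial markers summed to 9.24 to 43.2 TPM in WT and 31.8 to 47.1 TPM in null libraries; all 6 tested were higher in the null group, 3 of them at an unadjusted limma p under 0.05, where 60.1% of tested genes were lower and 4.15% were at that p. The same 6 were higher without null replicate 3. Perichondrial and fibroblast markers ran from 882 to 3882 TPM in WT and 1210 to 2568 TPM in null libraries, and erythroid markers from 111 to 1082 and 281 to 1039 TPM. All 5 erythroid markers were higher in the null group with and without null replicate 3, with 0 at an unadjusted limma p under 0.05. Of 5 perichondrial and fibroblast markers 2 were lower, and 0 without that library. Of 3 tested osteoblast markers 2 were lower in both comparisons. Macrophage markers summed to 16.4 to 22.6 and 15.1 to 25.2 TPM, lymphocyte markers to 0.369 to 0.948 and 0.525 to 1.74 TPM, osteoblast markers to 5.59 to 18.6 and 7.81 to 9.35 TPM, and skeletal muscle markers to 40.5 to 107 and 43.1 to 61.9 TPM, with Myh4 at 0 in all 8. Their part in the levels of the transport genes was not tested.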

How the data were processed

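RNA of costal chondrocytes from 8 mice was measured in 1 table for the whole series. The authors deposited TPM per gene, 1 column per mouse with no pooling. Its 52865 rows held 52325 gene identifiers, 273 of them repeated on 813 rows with identical values and counted once here, after which every column summed to 1000000. With the repeats, null replicate 3 sums to more than 1000000, so its deposited unit was recorded as other; it was treated as TPM. All columns belonged to a sample. Kallisto and DESeq2 are named, without version or role, per the submitters' processing notes, which name GRCh38 although the identifiers are mouse, with the annotation not given in the sources used here. TPM keep no depth, so no counting interval is given.

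Positions, lengths, overlaps and 3′ UTRs come from GENCODE M21 (GRCm38), where 52220 identifiers matched, and sequences of microRNAs and promoters from RefSeq (GRCm38.p6). Genes at 1 TPM or more in at least 4 libraries (13910) were fitted with limma 3.58.1 in R 4.3.3 on log2(TPM + 1), genotype as the only term and a trended prior, with Benjamini-Hochberg adjustment at 0.05 over all of them. Fold changes on this scale understate those of low genes. Paralog shares were compared by an exact two-sided permutation test. The fit was also run on simulated data in which a gene had the same spread in every library. That simulation held no deviating library, so it does not show how the fit handles null replicate 3.

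Members and lists were chosen with earlier results of these data known. Every library's value is given for the 12 members with the smallest p, the members of the 6 paralog families, and the highest and lowest member of each role group; Surf4 was added after its values were seen, and 3 genes of smallest p are named per other list, except for 1 gene that is not reported here. Alternatives were median-of-ratios scaling, rescaling of protein-coding genes, a pseudocount of 0.1, other filters, a replicate block, sex read from Xist alone, array quality weights, and leaving out each library.

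Replicate numbers name separate mice and were not taken as pairs.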

Additional observations from a re-analysis of the deposited data

Results flagged for a closer look

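Among 84 groups of 4 values (the members' TPM and the paralog shares in each genotype), 4 held a value set apart from the other 3 by more than Dixon's 95% limit, where chance gives about 1 in 20. In null replicate 3, Surf4 was at 61.4 TPM while the other null mice had 145 to 159 TPM, and Sec24a was at 19.9 TPM while they had 37.5 to 41.0 TPM. In WT replicate 4, Copa was at 140 TPM while the other WT mice had 168 to 173 TPM. The share of Copz1 in the Copz pair was 34.6% in null replicate 2, against 29.4% to 30.2% in the other null mice.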

How the results depend on the processing

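No member had an adjusted limma p under 0.05 under any of 16 alternatives, where the smallest was 0.713. At an unadjusted p under 0.05 the count was 1 with median-of-ratios scaling (Sec16a) and 2 with array quality weights (Sec16a and Mia3), and non-overlapping members numbered 1 with median-of-ratios scaling. Members lower in the null group numbered 13 with that scaling, which moved the median of all tested genes from -0.05 to 0.00. Leaving out 1 library at a time gave 0 to 2 members at an unadjusted p under 0.05, 0 to 3 non-overlapping, a median log2 fold change of -0.10 to 0.05, and 8 (without null replicate 3) to 27 (without WT replicate 4) lower. The cause of these shifts was not tested. In the main fit 4.15% of all tested genes had an unadjusted limma p under 0.05 and 2.68% did not overlap. Without null replicate 3 these shares were 5.06% and 5.99%. For the other alternatives these shares of all tested genes were not calculated, so their counts are not read as results about the members. With a replicate block 0 members passed and Sec16a had a limma p of 0.141 (adjusted 0.981); deviations of same-numbered mice correlated at -0.0385, 0.114, -0.0474 and 0.108, and WT replicates 2 and 4 matched their own number best.

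Of the 36 genes, 25 changed the sign of a small, uncalled log2 fold change at least once. With median-of-ratios scaling Sar1a had 0.044, Sec23b 0.018, Copa 0.0012, Copb2 0.052, Copz1 0.0077, Kdelr1 0.044, Tmed10 0.0088 and Golgb1 0.027. With protein-coding genes rescaled Sar1a had 0.011, Copb2 0.019 and Kdelr1 0.012, and with sex as a covariate Sar1a had 0.029, Sar1b -0.022 and Kdelr1 0.041. With array quality weights Sec23a had 0.055, Sec23b 0.038, Sec24a 0.033, Sec24c 0.12, Sec31a -0.00055, Copa 0.0057, Copb1 -0.046, Cope -0.067, Kdelr1 0.058, Kdelr2 -0.051, Lman1 0.0013, Surf4 0.18, Golga2 0.094 and Trip11 0.023.

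Leaving out 1 library gave Sar1a -0.15 to 0.092, Sar1b -0.043 to 0.041, Sec23a -0.32 to 0.10, Sec23b -0.20 to 0.10, Sec24a -0.24 to 0.095, Sec24b -0.12 to 0.18, Sec24c -0.38 to 0.039 and Sec31a -0.0079 to 0.071. It gave Copa -0.17 to 0.088, Copb1 -0.030 to 0.12, Copb2 -0.11 to 0.039, Cope -0.097 to 0.13, Copg1 -0.055 to 0.12 and Arcn1 -0.23 to 0.076. It also gave Kdelr1 -0.11 to 0.054, Kdelr2 -0.0023 to 0.16, Tmed2 -0.13 to 0.024, Lman1 -0.29 to 0.049, Mcfd2 -0.0038 to 0.13, Surf4 -0.23 to 0.22, Golga2 -0.25 to 0.11, Golgb1 -0.090 to 0.0044 and Trip11 -0.32 to 0.16. The genes that kept their sign ran over Preb 0.05 to 0.48, Sec24d 0.04 to 0.29, Sec13 -0.16 to -0.03, Sec16a 0.18 to 0.37, Mia3 0.06 to 0.40, Trappc2 -0.18 to -0.07, Arf1 -0.13 to -0.04, Arf4 0.000028 to 0.15, Kdelr3 0.02 to 0.10, Tmed9 -0.14 to -0.06 and Ctage5 0.22 to 0.49. Share differences in percentage points ran over Sar1b -0.228 to 0.858, Kdelr3 -0.558 to 0.704, Sec23a -3.78 to -0.0505, Sec24d 2.95 to 6.21, Copg1 1.65 to 4.63 and Copz1 1.20 to 3.84. TPM without counts leave the precision of low genes such as Trappc2 unknown.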
